A study of Mus musculus with 13 samples.

Results

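The mitochondrial ribosomal proteins are the nuclear-encoded proteins that, with ribosomal RNA from mitochondrial DNA, build the ribosome of the mitochondrion. Members were all genes of the deposited array table whose symbol is Mrpl or Mrps followed by a digit, which gave 77 of the 19938 genes tested, 48 with Mrpl symbols and 29 with Mrps symbols. For the 8 members with a pair of transcript clusters, the cluster with the higher mean over the arrays was used. Mrpl53 shared its only cluster with Ccdc142 and was not analysed here.

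The cells were primary mouse embryonic fibroblasts (Millipore), a connective tissue culture of embryonic origin, kept in high-glucose DMEM with serum either at 37°C throughout (normothermia) or in an incubator lowered to 32°C (mild hypothermia). RNA was profiled at 0, 0.5, 1, 2, 4, 8 and 18 h on Affymetrix Mouse Gene 1.0 ST arrays, which measure a gene by probes along its transcript. Each of the 13 arrays held the pooled RNA of 3 dishes, the array at 0 h starts both series, and no condition has a replicate array. Neither a genotype nor a further treatment separated the groups.

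With single arrays, an error given here is the scatter of arrays about a fitted time course or of same-time differences, and p-values measure nothing more. Array medians lay between 145 and 149.8 intensity units, and the median correlation of an array with the others was 0.995 to 0.998. The 11 measured fibroblast markers had mean log2 intensities of 10.12 to 13.78, and the 25 markers of other cell types had a median of 6.43, with Acta1, the skeletal muscle actin, highest at 11.11. None of these 36 markers passed any of the tests below. In bulk RNA, fewer cells of a type and less RNA per cell cannot be told apart.

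The mitochondrial ribosome translates the messenger RNAs transcribed from mitochondrial DNA, which in mammals encode membrane subunits of the respiratory chain and of ATP synthase. Its small subunit (28S) decodes the message, and its large subunit (39S) joins the amino acids and passes the chain out through the exit tunnel into the inner membrane. All of its proteins are made in the cytosol from nuclear genes and imported. Some descend from proteins of the bacterial ribosome and others are found in mitochondria alone. Promoters of nuclear genes for mitochondrial proteins are known to hold sites for the transcription factors NRF1, GABPA of the ETS family, and YY1.

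The 77 members comprised 26 proteins of the small subunit, 50 of the large subunit (Mrps18a and Mrps30 included, which sit there despite their names) and Mrps36, which is known as a subunit of the oxoglutarate dehydrogenase complex. By a fixed list of names, 46 have a bacterial homologue. The other 31, with Mrps18a and Mrps18b counted here and Mrps18c among the 46, were taken as specific to mitochondria. The promoters, 250 bases before to 50 bases after the RefSeq transcription start in the assembly GRCm38.p6, were given for 68 members. The promoters of 4 members are shown because these members stood at the ends of the temperature response and because they differ in which of the motifs they hold. Capitals mark a motif, searched on both strands as GCGCANGCG for NRF1, CCGGAAG for ETS factors and AAGATGGCG for YY1.
Mrps9: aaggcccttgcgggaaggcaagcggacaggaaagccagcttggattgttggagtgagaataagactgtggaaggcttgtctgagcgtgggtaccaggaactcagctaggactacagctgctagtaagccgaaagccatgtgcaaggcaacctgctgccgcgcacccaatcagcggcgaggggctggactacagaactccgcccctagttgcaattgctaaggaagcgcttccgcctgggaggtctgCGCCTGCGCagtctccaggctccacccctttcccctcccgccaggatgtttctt
Mrpl27: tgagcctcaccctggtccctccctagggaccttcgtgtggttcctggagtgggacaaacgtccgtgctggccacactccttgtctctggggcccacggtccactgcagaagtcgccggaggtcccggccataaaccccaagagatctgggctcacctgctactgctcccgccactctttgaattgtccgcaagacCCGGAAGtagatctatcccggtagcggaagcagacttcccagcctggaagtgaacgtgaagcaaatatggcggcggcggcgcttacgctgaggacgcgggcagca
Mrpl42: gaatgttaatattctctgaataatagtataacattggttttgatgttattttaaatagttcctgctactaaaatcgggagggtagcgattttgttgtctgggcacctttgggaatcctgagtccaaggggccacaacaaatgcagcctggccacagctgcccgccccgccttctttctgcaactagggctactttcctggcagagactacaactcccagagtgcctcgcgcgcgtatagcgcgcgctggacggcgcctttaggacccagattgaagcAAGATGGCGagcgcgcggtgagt
Mrps6: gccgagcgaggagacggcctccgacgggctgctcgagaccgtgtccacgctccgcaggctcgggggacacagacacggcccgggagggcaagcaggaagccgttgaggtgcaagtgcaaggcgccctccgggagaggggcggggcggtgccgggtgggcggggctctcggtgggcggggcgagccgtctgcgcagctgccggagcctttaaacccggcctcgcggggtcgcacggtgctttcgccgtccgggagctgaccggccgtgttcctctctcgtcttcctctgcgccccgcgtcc

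The Mrps9 promoter (chr1:42850983-42851282, plus strand) held the NRF1 motif on the opposite strand with its first base at -4 from the start site. That of Mrpl27 (chr11:94653541-94653840, plus strand) held the ETS motif at -55, and that of Mrpl42 (chr10:95501900-95502199, minus strand) held the YY1 motif at 27. The Mrps6 promoter (chr16:92058086-92058385, plus strand) held none of these letters, and had 39 CG dinucleotides.

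A gene was counted as holding a motif if any of its promoters did, and 3 members have several promoters. Over the 68 members with a promoter, the NRF1 motif occurred in 16 (23.5%, against 10.5% of the 15563 tested genes with a promoter and 7.03% of all 27025 genes of the promoter table). The ETS motif occurred in 25 (36.8%, against 13.6% and 9.93%) and the YY1 motif in 8 (11.8%, against 2.29% and 1.64%). At least 1 of these motifs was found in 41 members (60.3%, against 23.3% and 16.5%). Promoters of members were also richer in CG dinucleotides, with a median of 21 against 15 over the tested genes in the first promoter of each gene. What this contributes to the shares was not tested. Cytosolic ribosomal proteins held the ETS motif in 39.5% of 43 genes and the YY1 motif in 0 of them. Of 66 genes of oxidative phosphorylation, 28.8%, 25.8% and 10.6% held NRF1, ETS and YY1 motifs. These are matches of letters, not binding sites.

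The first question was how the members' levels at 32°C compared with those at 37°C of the same time. Most members were slightly higher at 32°C at each time before 18 h, most of all at 2 h, though the direction at 1 h depended on the normalization. At 18 h they lay on either side of 0. At 0.5 h, 59 of 77 members were higher at 32°C (58.4% of all genes, and 57.8% of genes above the median signal) with a median difference of 0.09 on the log2 scale and a range from -0.42 to 0.33. At 2 h, 71 were higher (51.7% of all genes, 58.6% of genes above the median signal), with a median of 0.15, which is 1.11-fold, and a range from -0.10 to 0.41. At 18 h, 33 were higher (54.6% of all genes, 41.2% of genes above the median signal) and the median was -0.01, with a range from -0.37 to 0.31.

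At 1 h, 54 members were higher (49.2% of all genes, 64.6% of genes above the median signal) with a median of 0.03, which became -0.0056 with 36 members higher after quantile normalization, so the members had no settled direction at 1 h. At 4 h, 54 were higher (48.1% of all genes, 45.9% of those above the median signal) with a median of 0.04, and at 8 h, 59 were higher (47.5% and 45.5%) with a median of 0.08. At 18 h the sign was also not settled, since the median became 0.03 with 46 members higher after quantile normalization. Of the 77 members, 75 lay above the median signal of all genes, and the 9969 genes above it had median differences of 0.03 at 0.5 h, 0.03 at 2 h and -0.04 at 18 h.

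**Figure D1:**
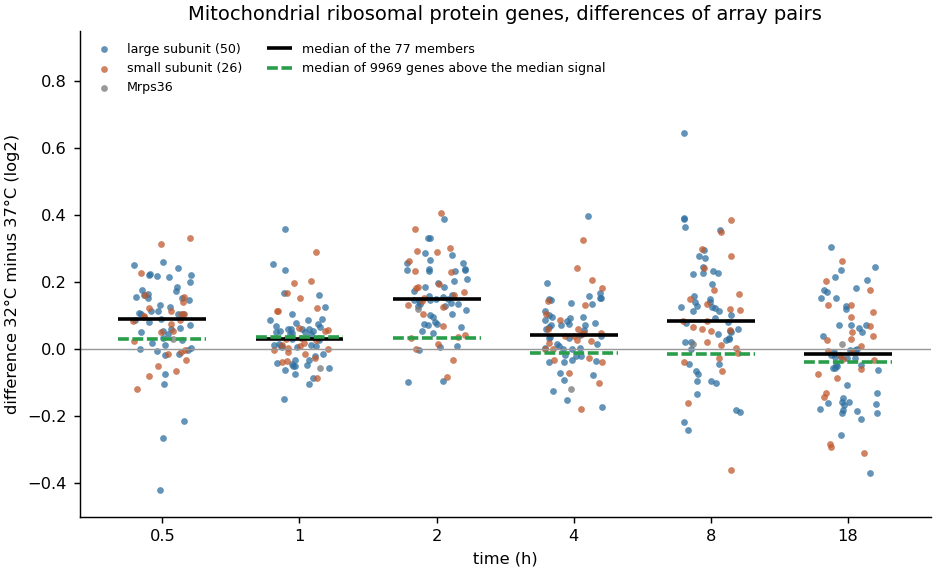
Each point is the difference in log2 intensity between the 32°C and the 37°C array of the same time (y axis) for 1 of 77 genes, by time in h (x axis, evenly spaced, with random side shift), coloured by subunit. Black lines are medians of the members and green dashed lines are medians of the 9969 genes above the median signal. At 2 h, 71 of 77 points lie above 0, and at 18 h 33 do.

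Set against the shared array at 0 h, the median at 2 h was 0.08 at 32°C and -0.08 at 37°C. How the difference at 2 h splits between the series depends on that single array at 0 h. At 37°C the members had medians below the array at 0 h at each later time, between -0.09 at 1 h and -0.02 at 18 h. At 32°C the median change was 0.02 at 0.5 h, and between -0.05 and -0.0064 at 1, 4, 8 and 18 h. The 2 h array at 32°C held the highest of the 13 levels for 29 of 77 members, against 10.9% of all genes, and the largest of the 6 differences fell at 2 h for 33 members, against 18% of all genes. These shares were not counted for genes above the median signal. The 2 h array at 32°C also had the highest mean intensity of the 13, 687 against 672 to 681 on the others, with the lowest median, 145. As each condition has 1 array, the condition and the array cannot be told apart.

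Both subunits had similar values. The 26 proteins of the small subunit had median differences of 0.09, 0.03, 0.16, 0.04, 0.08 and 0.0022 at 0.5, 1, 2, 4, 8 and 18 h, and the 50 of the large subunit had 0.10, 0.04, 0.15, 0.05, 0.10 and -0.02. At 2 h, 23 small and 47 large subunit genes were higher at 32°C. Members with a bacterial homologue (44 of 46 higher) and those specific to mitochondria (27 of 31 higher) had medians of 0.15 and 0.17 at that time. Mrps36, the member that belongs to another complex, had a difference of 0.12 at 2 h and a mean over the 6 pairs of 0.0018 ± 0.045 (SE).

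**Figure D2:**
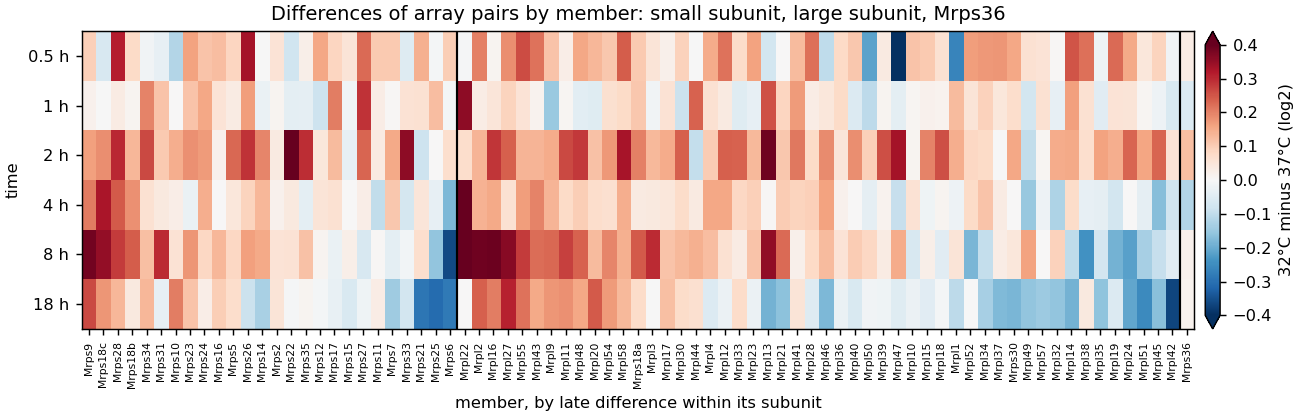
Colour gives the difference in log2 intensity between 32°C and 37°C (red higher at 32°C, capped at 0.4 either way) for each of 77 genes (columns: 26 small subunit, 50 large subunit, Mrps36, each ordered by the mean difference at 4, 8 and 18 h) at 6 times (rows). The row at 2 h is red for 71 genes, and the row at 18 h holds 33 red and 44 blue columns.

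A fit over the 6 pairs with time point as a block gave the mean difference of each gene. It was above 0 for 63 of 77 members (53.6% of all genes), with a median of 0.06 against 0.0070 over all genes and -0.0016 over the genes above the median signal. Without the 2 h pair it was 0.04, with 59 of 77 above 0. No member passed at an adjusted p under 0.05 in limma, where 14 of 19938 genes did (3 higher, 0.015%, and 11 lower, 0.0552%). At an unadjusted p under 0.05, 22 members were higher (7.13% of all genes) and 0 were lower (6.39%). Among the 9969 genes above the median signal, 1034 were higher and 891 lower. The largest mean difference was that of Mrpl22, 0.25 ± 0.085 (SE over 6 pairs).

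Split by time, the mean difference at 0.5, 1 and 2 h was above 0 for 73 of 77 members, against 53.5% of all genes and 62.1% of genes above the median signal. The median was 0.09 against 0.0079 over all genes, and 0.06, with 62 of 77 above 0, when the 2 h pair was left out. The 4 members below 0 were Mrpl42, Mrpl47, Mrpl49 and Mrpl50, named after their values were seen, and all 26 small subunit genes were above 0. No member and no other gene passed the test of this early difference after adjustment. At an unadjusted p under 0.05, 12 members were higher (4.18% of all genes) and 0 were lower (3.1%). Among the 9969 genes above the median signal, 632 were higher and 301 lower.

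The mean difference at 4, 8 and 18 h was above 0 for 49 of 77 members (53.5% of all genes), with a median of 0.04 against 0.0099 over all genes and -0.02 over the genes above the median signal. It was 0.02 (45 of 77 above 0) without the 8 h pair and 0.08 (56 of 77) after quantile normalization. Mrps9 was the 1 member that passed (160 of 19938 genes passed higher, 0.802%, and 428 lower, 2.15%). The 26 members that were higher early and lower late included Mrps6, Mrpl24, Mrpl45 and Mrpl51, and 47 were higher both early and late. The shares of all genes with these patterns were not counted. Of the genes above the median signal, 62.1% were above 0 early and 43.0% late. At an unadjusted p under 0.05, 13 members were higher late (7.62% of all genes) and 2 were lower (10.8%). Among the 9969 genes above the median signal, 902 were higher and 1722 lower.

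In 17 members the 32°C array was higher in 6 of 6 pairs (4.79% of all genes, 7.76% of genes above the median signal), and in 0 members it was lower in all 6 (2.92%). These 17 comprised 6 of the small and 11 of the large subunit. For 2 of them, Mrpl41 and Mrps5, the dimmer cluster was higher in only 3 and 4 of the 6 pairs. At 0.5, 1 and 2 h the arrays at 32°C lay above all those at 37°C for 21 members (8.07% of all genes) and below them for 0 (4.17%). At 4, 8 and 18 h they lay above for 19 members (10.3%) and below for 7 (12.9%). For arrays lying apart in this way, the shares among genes above the median signal were not counted.

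In 3 members, named after their values were seen, the 6 arrays at 32°C lay above all 6 at 37°C of the same times (0.863% of all genes, not counted for genes above the median signal). Mrpl58, a peptidyl-tRNA hydrolase of the large subunit that frees stalled ribosomes, had log2 levels of 9.75, 9.84 and 10.00 (lowest, median and highest of 6 arrays) at 32°C, against 9.63, 9.68 and 9.72 over 7 arrays at 37°C. Its highest level was on the 2 h array and its lowest at 32°C on the 1 h array. Mrps28 of the small subunit had 8.16, 8.29 and 8.39 at 32°C against 7.93, 8.09 and 8.12 at 37°C. Mrpl54 of the large subunit had 9.99, 10.09 and 10.15 at 32°C against 9.92, 9.96 and 9.99 at 37°C, where its highest level was that at 0 h. None of the 3 passed over the 6 pairs, with limma adjusted p = 0.161, 0.131 and 0.231 in that order.

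The second question was whether the courses moved apart from their common start. Divergence here is the coefficient of 32°C times the order of the time point (0 to 6), so it is in log2 units per time step and equals a line through 0 at 0 h over the 6 differences. A constant difference also gives a value other than 0. Divergence was positive for 54 of 77 members (53.8% of all genes), with a median of 0.012 against 0.0020 over all genes and -0.0029 over the genes above the median signal. With a separate term for 32°C, which takes up a constant difference, the median was -0.013, 30 of 77 members were positive and 0 passed. The median was 0.0061 without the 2 h pair and 0.021 without 18 h. Of 565 genes past the test, 234 were higher at 32°C (1.17%) and 331 were lower (1.66%), and the members among them were Mrpl27 and Mrps9, both higher. At an unadjusted p under 0.05, 18 members had a positive divergence (8.52% of all genes) and 2 a negative one (9.9%). Among the 9969 genes above the median signal, 1096 had a positive and 1522 a negative one.

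**Figure D3:**
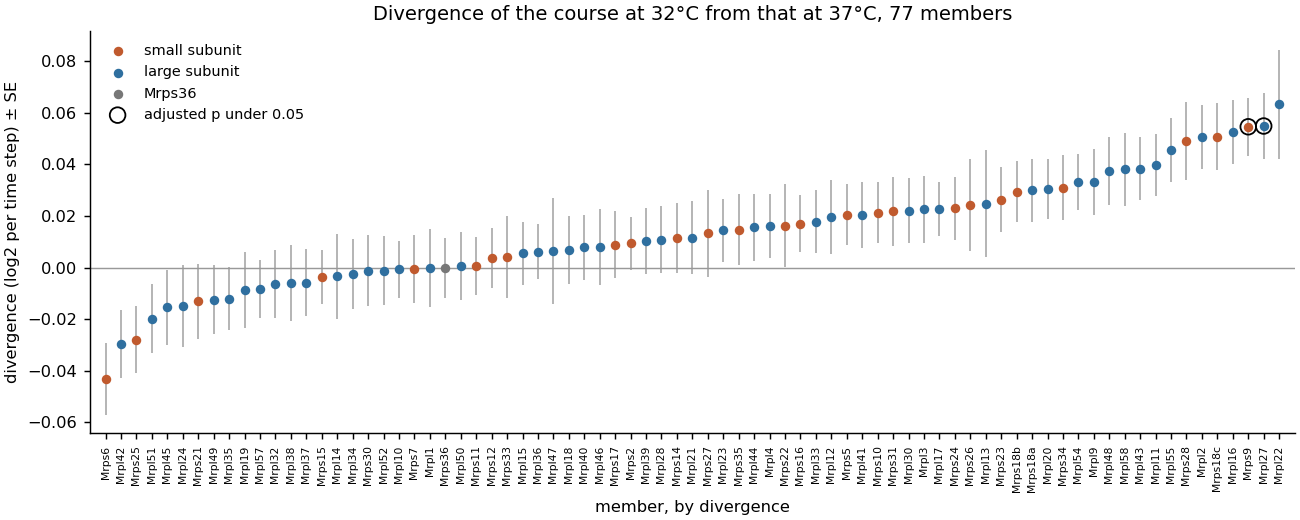
Divergence with its standard error (y axis, log2 per time step) for 77 genes in rank order (x axis), coloured by subunit, with rings around genes at an adjusted p under 0.05. Values run from -0.043 for Mrps6 to 0.063 for Mrpl22, 54 lie above 0, and the 2 ringed genes are Mrps9 and Mrpl27.

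Mrps9, whose bacterial homologue reaches the transfer RNA in the peptidyl site, was higher at 32°C in 6 of 6 pairs. Its log2 levels at 32°C were 8.38, 8.38, 8.56, 8.58, 8.63 and 8.60 from 0.5 to 18 h, against 8.28, 8.36, 8.39, 8.37, 8.24 and 8.33 at 37°C and 8.35 at 0 h. From 2 h on, the 32°C levels stood above every level at 37°C, and before that both series overlapped. Mrps9 had a divergence of 0.055 ± 0.011 (SE, limma adjusted p = 0.035), which a constant difference can also give, and a late difference of 0.29 ± 0.064 (1.22-fold, adjusted p = 0.0481).

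Mrpl27, whose bacterial homologue lies beside the peptidyl transferase centre, was also higher in 6 of 6 pairs. Its log2 levels at 32°C were 9.58, 9.47, 9.72, 9.58, 9.75 and 9.73 from 0.5 to 18 h, against 9.39, 9.39, 9.48, 9.52, 9.39 and 9.43 at 37°C and 9.49 at 0 h. The level at 1 h and 32°C lay within the range at 37°C, and the other 5 lay above it. Its divergence was 0.055 ± 0.013 (SE, limma adjusted p = 0.0465), and that of its dimmer cluster was 0.055 as well, with 6 of 6 pairs higher. Its late difference, 0.24 ± 0.073, did not pass (adjusted p = 0.115).

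Both calls lay close to the threshold. Leaving out the pair at 0.5, 2, 4, 8 or 18 h raised the adjusted p of either divergence above 0.05, up to 0.19 for Mrps9 and 0.221 for Mrpl27 without 8 h, and that of Mrpl27 also without 1 h (0.0564), while the divergence itself stayed between 0.046 and 0.063. Neither passed once 32°C had a term of its own (adjusted p = 0.381 for Mrps9 and 0.623 for Mrpl27). The late call of Mrps9 was lost without any 1 of the 6 pairs (adjusted p = 0.0585 to 0.283).

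The next members by divergence did not pass. Mrpl22, whose bacterial homologue lines the exit tunnel, had the highest value, 0.063 ± 0.021 (adjusted p = 0.141). Its differences ran from -0.0051 at 0.5 h to 0.65 at 8 h and came to 0.00072 at 18 h. At 37°C its levels were 7.86, 8.28 and 8.38 (lowest, median, highest of 7 arrays) and at 32°C 8.26, 8.36 and 8.56 (6 arrays), so the series overlapped, and the low arrays were those at 4 and 8 h and 37°C. Without 18 h its divergence was 0.10 (adjusted p = 0.0492).

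Mrpl16, whose bacterial homologue sits near the aminoacyl site, had a divergence of 0.053 ± 0.013 (adjusted p = 0.052). Its levels at 32°C were 9.64, 9.82 and 9.97 (lowest, median, highest of 6 arrays) against 9.58, 9.63 and 9.68 (7 arrays) at 37°C, and overlapped only at 1 h. Mrpl2, a core protein of the large subunit, had 0.051 ± 0.013 (adjusted p = 0.0578), with levels of 8.96, 9.09 and 9.20 at 32°C against 8.80, 8.94 and 8.97 at 37°C. Both were higher in 6 of 6 pairs, as was Mrpl55 of the large subunit, with a divergence of 0.046 ± 0.013 (adjusted p = 0.0809).

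At the other end stood Mrps6, which with its partner in the bacterial ribosome, S18, forms part of the platform of the small subunit. Its log2 levels at 32°C were 11.69, 11.55, 11.54, 11.34, 11.30 and 11.28 from 0.5 to 18 h, against 11.59, 11.56, 11.47, 11.52, 11.66 and 11.56 at 37°C and 11.59 at 0 h. From 4 h on, its levels at 32°C lay below every level at 37°C, and before that the series overlapped. Its late difference was -0.27 ± 0.063 (0.827-fold, adjusted p = 0.0518) and its divergence -0.043 ± 0.014 (adjusted p = 0.122), neither past the threshold. Mrps18c, a mitochondrial homologue of S18, had a late difference of 0.29 ± 0.070 in the other direction (1.22-fold, adjusted p = 0.0644). Its levels at 32°C were 9.10, 9.58 and 9.68 (lowest, median, highest of 6 arrays) against 9.16, 9.33 and 9.44 (7 arrays) at 37°C.

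**Figure D4:**
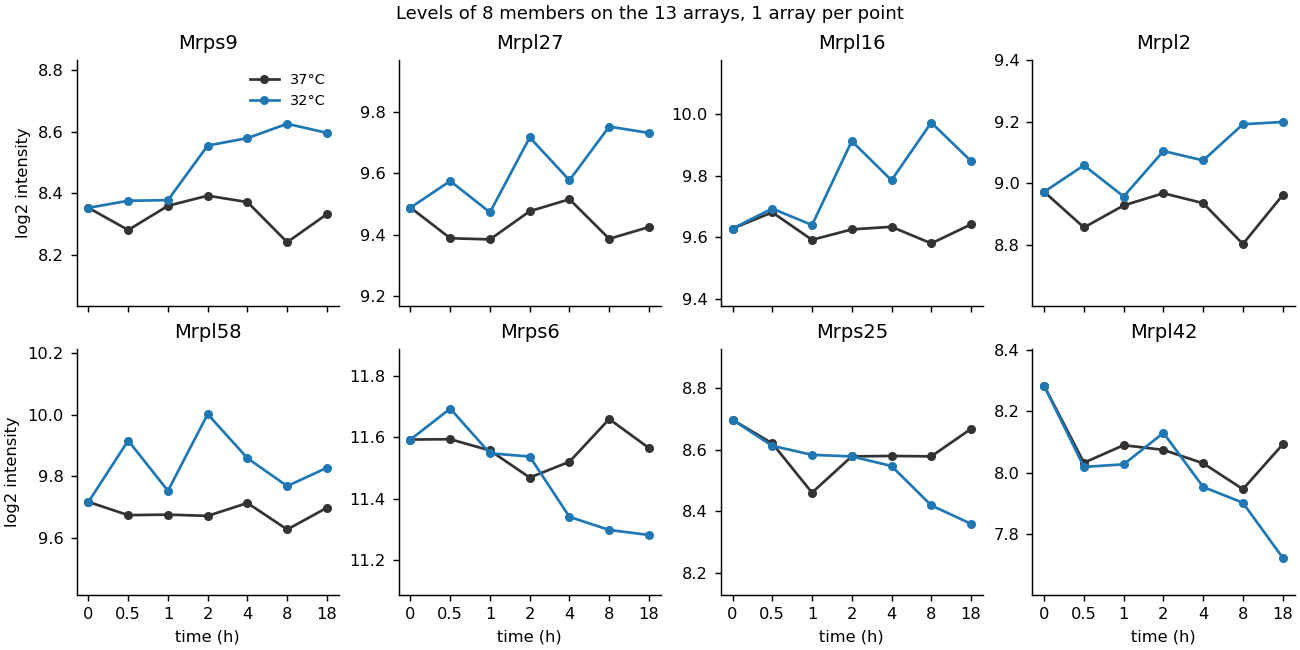
Log2 intensity (y axis, each panel spanning the same range of 0.8) on the 13 arrays against time in h (x axis, evenly spaced) for 8 members at 32°C (blue) and 37°C (black), 1 array per point, with the array at 0 h shared. Mrps9, Mrpl27, Mrpl16, Mrpl2 and Mrpl58 lie above their 37°C course in 6 of 6 pairs, and Mrps6 lies below it at 4, 8 and 18 h.

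Of the 6 members with the lowest divergence, which did not pass the test, 4 are specific to mitochondria, as are 31 of the 77 members. By divergence, Mrpl42 had -0.030 ± 0.013 (adjusted p = 0.258), Mrps25 -0.028 ± 0.013 (0.284), Mrpl51 -0.020 ± 0.013 (0.475) and Mrpl45, which contacts the inner membrane at the exit tunnel, -0.015 ± 0.014 (0.63). Mrps25 and Mrpl42 also had the lowest late differences after Mrps6, -0.17 ± 0.070 (adjusted p = 0.243) and -0.16 ± 0.075 (0.286). The difference at 18 h was the lowest of the 6 for Mrpl42, Mrps25 and Mrpl51, at -0.37, -0.31 and -0.26. The dimmer cluster of Mrpl51 gave a divergence of -0.078, further from 0 than the one used. It had a late difference of -0.47, a difference at 18 h of -0.70 and a slope at 32°C of -0.11. Each of these 4 values lay below the lowest among the 77 clusters used. Mrpl24, an early-binding protein of the large subunit in bacteria, had -0.015 ± 0.016 (adjusted p = 0.676), with differences of 0.23 at 2 h and -0.22 at 8 h. All 6 members with the highest divergence have a bacterial homologue, as do 46 of the 77, and the medians of both classes were 0.013 and 0.010.

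The third question, that of the study's own time-series design, was whether levels ran in 1 direction over time. No member passed the test of the slope on the order of time points at 32°C (9 genes higher, 0.0451%, and 10 lower, 0.0502%) or at 37°C (0 genes either way). At an unadjusted p under 0.05, 7 members had a positive and 7 a negative slope at 32°C (7.14% and 9.35% of all genes), and 1 and 2 at 37°C (3.62% and 2.18%). Of the 9969 genes above the median signal, 718 had a positive and 1608 a negative slope at 32°C, and 312 and 229 at 37°C. Slopes were above 0 for 34 of 77 members at 32°C (56.6% of all genes, 42.1% of genes above the median signal) and for 33 at 37°C (55.7% and 54.3%). The median slope of the members was -0.0058 per time step at 32°C, which became 0.0021 after quantile normalization and -0.00050 without 18 h, against -0.0067 over the genes above the median signal. At 37°C it was -0.0022, and ran from -0.012 without 18 h (17 of 77 positive) to 0.0065 without 0 h (58 positive), so the members had no settled direction there. Both series share that array.

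The lowest slopes at 32°C were those of Mrpl42 (-0.071 ± 0.018, limma adjusted p = 0.11), Mrps6 (-0.069 ± 0.016, 0.0885), Mrps25 (-0.051 ± 0.014, 0.117) and Mrpl14 of the subunit interface (-0.048 ± 0.018, 0.228). Mrpl42 had log2 levels of 7.72, 7.99 and 8.13 (lowest, median, highest of 6 arrays) at 32°C and 7.95, 8.07 and 8.28 over 7 arrays at 37°C, with the lowest at 18 h and 32°C and the highest at 0 h. The highest slopes at 32°C were those of Mrps18c (0.065 ± 0.026, adjusted p = 0.249), Mrps9 (0.051 ± 0.015, 0.133), Mrpl16 (0.049 ± 0.018, 0.223) and Mrpl55 (0.047 ± 0.017, 0.211). At 37°C, the lowest slopes were -0.044 ± 0.030 for Mrpl22, -0.039 ± 0.016 for Mrpl47, a protein of the exit tunnel rim, and -0.029 ± 0.016 for Mrpl42. The highest at 37°C were 0.025 ± 0.011 for Mrps31, 0.023 ± 0.017 for Mrpl41 and 0.020 ± 0.014 for Mrps21, and none of these 6 passed (adjusted p of 0.83 or more).

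Kendall's tau uses only the order of the levels. By its exact 1-sided test at an unadjusted p under 0.05, 6 members rose at 32°C (8.82% of all genes did) and 11 fell (8.44%), and at 37°C 0 rose (4.99%) and 1, Mrpl9, fell (3.3%). The shares among genes above the median signal were not counted for tau. After quantile normalization 13 members rose and 6 fell at 32°C. Mrps25 went down from every time point to the next at 32°C, which gives a tau of -1, and 20 of 19938 genes did so, with log2 levels of 8.70 at 0 h and 8.61, 8.58, 8.58, 8.55, 8.42 and 8.36 after it. At 37°C its levels were 8.46, 8.58 and 8.70 (lowest, median, highest of 7 arrays) with a tau of -0.10, so the series overlapped until 4 h and stood apart at 8 and 18 h. Mrps6 and Mrps9 had a tau of -0.90 and 0.90 at 32°C, and of -0.05 each at 37°C.

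Among members with a pair of clusters, the rows correlated over the 13 arrays at 0.99 for Mrpl23, 0.97 for Mrps33 and 0.94 for Mrps36, and at -0.35 for Mrpl47 and 0.45 for Mrpl41, which gave divergences of opposite sign (0.0065 and -0.020, and 0.021 and -0.00043). The members with the highest signal, Mrps21 (mean log2 11.66), Mrps6 and Mrpl40 (11.24), and those with the lowest, Mrps12 (7.26), the decoding-site protein, Mrpl44 (7.26) and Mrpl47 (7.80), were also followed, although signals of different probe sets do not rank genes by abundance. Mrps21 had a divergence of -0.013 ± 0.014, Mrpl40 one of 0.0078 ± 0.013, Mrps12 one of 0.0036 ± 0.012 and Mrpl44 one of 0.016 ± 0.013. Over the 13 arrays, the range of a member's levels was 0.33 in the median and 0.70 at most, for Mrpl22.

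The machinery around the ribosome was described from lists of genes. Mitoribosome proteins under other names had positive values like the members, with divergences of 0.037 for Dap3, 0.032 for Chchd1, 0.014 for Gadd45gip1 and 0.0060 for Ptcd3, and 0 of 4 passed. Of 17 translation factors, 0 passed higher in divergence (1.17% of all genes) and 1 lower (1.66%), Mtrf1l, a release factor (-0.065 ± 0.014, limma adjusted p = 0.0379). In the late difference Mtrf1l (-0.36 ± 0.069, adjusted p = 0.0339) and Gfm2, which recycles the ribosome (-0.32 ± 0.064, 0.0368), passed lower. In that test 2.15% of all genes passed lower and 0.802% higher. The list's median late difference was -0.10, against 0.04 for the members and -0.02 over the genes above the median signal.

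Assembly factors went both ways. Of 27, 2 passed higher in divergence (1.17% of all genes) and 0 lower (1.66%). They were Rbfa, which acts in maturation of the small subunit (0.082 ± 0.011, limma adjusted p = 0.00844), and Malsu1, which binds the large subunit during assembly (0.063 ± 0.012, 0.0248). In the late difference Rbfa passed higher (0.42 ± 0.067, adjusted p = 0.0213), and Tfb1m, which methylates the small ribosomal RNA (-0.58 ± 0.11, 0.0339), and Mettl17, a small subunit assembly factor (-0.31 ± 0.062, 0.0367), passed lower. Of all genes, 0.802% passed higher and 2.15% lower in this difference. The median divergence of this list was -0.0022.

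Mitochondrial aminoacyl-tRNA synthetases, which charge the transfer RNAs, had a median divergence of -0.021 and a median late difference of -0.16, with 14 of 19 below 0 in the latter. Late, 46.5% of all genes were below 0, and 5687 of the 9969 genes above the median signal. Mars2, the methionyl enzyme, was the 1 that passed (divergence -0.048 ± 0.011, limma adjusted p = 0.0473, where 1.66% of all genes passed lower). Among 11 genes of mitochondrial DNA transcription and replication, Polg, the DNA polymerase, passed lower in divergence (-0.074 ± 0.014, adjusted p = 0.0238) and in the late difference (-0.40 ± 0.084, 0.0417). Of all genes, 1.66% passed lower in divergence and 2.15% in the late difference. Of 10 regulators, 0 passed. Nrf1 had a divergence of -0.0086, Gabpa -0.026 and Yy1 -0.054 (adjusted p = 0.75, 0.363 and 0.0694), and Yy1 was lower at 32°C in 6 of 6 pairs (2.92% of all genes).

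Of the larger lists, cytosolic ribosomal proteins (54 genes) and nuclear-encoded subunits of oxidative phosphorylation (81 genes) had 0 genes past any of the 6 tests. Their median differences at 2 h were 0.08 and 0.10, with 47 of 54 and 69 of 81 higher at 32°C, against 0.15 and 71 of 77 for the members. At 18 h they were 0.05 and 0.04, with 44 of 54 and 54 of 81 higher, against -0.01 and 33 of 77. Their median divergences were 0.0088 and 0.013, against 0.012. Differences between these lists were not tested.

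**Figure D5:**
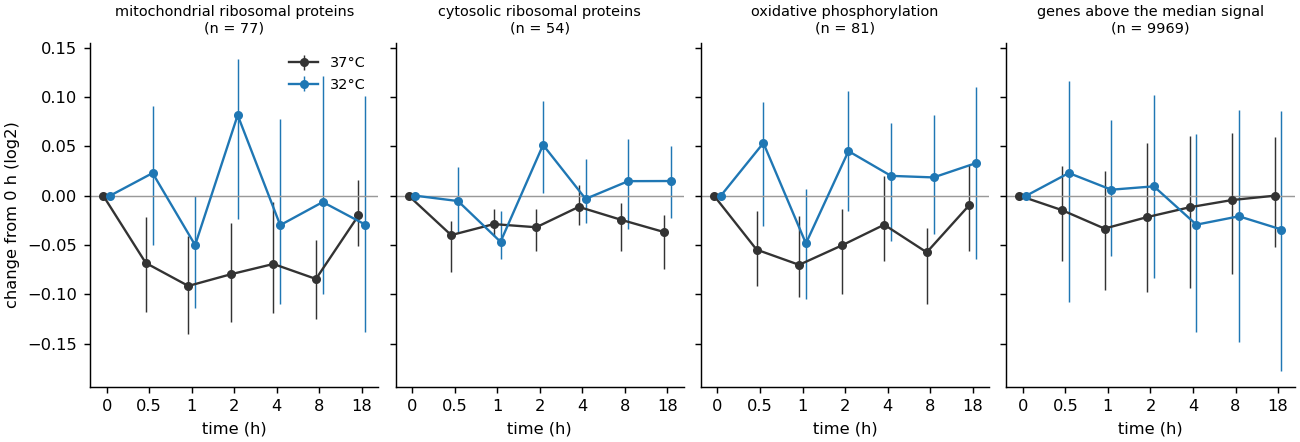
Median change in log2 intensity from the array at 0 h (y axis) by time in h (x axis, evenly spaced) at 37°C (black) and 32°C (blue) for the 77 members, 54 cytosolic ribosomal proteins, 81 subunits of oxidative phosphorylation and 9969 genes above the median signal, with bars from the first to the third quartile over genes. The members reach 0.08 at 2 h and 32°C and lie between -0.09 and -0.02 at 37°C, and the quartile bars of both temperatures are apart at 2 h and overlap at the other 5 times.

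Members were also grouped by promoter motif, with no test between the groups. The median divergence was 0.018 for the 16 members with the NRF1 motif and 0.010 for the 52 without, and 0.018 for the 25 with the ETS motif and 0.0081 for the 43 without. With the YY1 motif it was 0.0035 in 8 members and 0.012 in the 60 without. At 2 h the medians with and without were 0.15 and 0.15 for NRF1, 0.16 and 0.15 for ETS and 0.11 and 0.15 for YY1. In the late difference the medians with and without were 0.06 and 0.03 for NRF1, 0.06 and 0.01 for ETS, and -0.02 and 0.05 for YY1. The 2 members past the divergence test hold different motifs, NRF1 in Mrps9 and ETS in Mrpl27, as printed above.

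Fibroblast markers had a median late difference of -0.10, with 8 of 11 below 0 (46.5% of all genes). Their summed intensity was 50456 to 55636 on the arrays at 32°C against 54245 to 55668 at 37°C. The 25 markers of other cell types summed to 5374 to 6174 at 32°C and 5552 to 5916 at 37°C, with a median late difference of 0.02 and none listed at 0. Their part in the results of the members was not tested.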

How the data were processed

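RNA of mouse embryonic fibroblasts at 32°C and 37°C was measured on 13 arrays. The authors deposited intensity values on a linear scale for 28853 transcript clusters; the summarization of probes and the normalization were not given in the sources used here. Array medians spanned 0.046 on the log2 scale, so values were log2 transformed as deposited. Precision is limited by the number of arrays.

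The probe annotation gave 1 symbol for 21789 clusters, several for 1621 (left out) and none for the others, and 21698 matched a mouse gene by Entrez identifier. The brightest of several clusters was kept, which gave 19938 genes. Which cluster measures a gene was not determined. Members, lists and tests were chosen with earlier results of these data known. Named members are those past a test, the 6 and 6 at the ends of divergence, the 4 and 4 of the slope at 32°C, the 3 and 3 of the slope at 37°C, of the late difference and of the mean, those with a tau of 1 or -1, and those whose clusters differ in the sign of divergence. Of the other lists, genes past a test are named.

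Models were fitted over all genes with limma 3.58.1 in R 4.3.3, 2-sided, with Benjamini-Hochberg adjustment and a threshold of 0.05. The 6 fits were the slopes at 32°C and 37°C on the order of the 7 time points, the divergence (time point as a block, no separate term for 32°C), and the mean differences over 6, 3 early and 3 late pairs. The divergence fit was tested on simulated data. Kendall's tau was tested exactly. Other settings tried were quantile normalization, ranks within an array scaled from 0 to 100, an offset of 16, only genes above the median signal, the mean of all clusters of a gene, all clusters, each time point left out, log2 of hours as the time axis, a robust variance trend, a separate term for 32°C, and a common line in place of the time block. Figures were drawn with matplotlib 3.10.9.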

Additional observations from a re-analysis of the deposited data

Results flagged for a closer look

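The courses of 2 members differed between the temperatures by the test of the difference itself. The divergence was 0.0549 log2 per time step for Mrpl27 and 0.0546 for Mrps9, higher at 32°C in 6 of 6 pairs for both. Over the alternatives tried, the adjusted p in limma ran from 0.02 to 0.623 for Mrpl27 and from 0.0121 to 0.381 for Mrps9, the highest in each with a separate term for 32°C. In this direction 1.17% of all genes passed.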

How the results depend on the processing

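Of 262 recomputed summary values, 215 stayed within the limits set for a change and 47 did not. The limits let some changes of direction through. After quantile normalization the members higher at 32°C went from 54 to 36 at 1 h and from 33 to 46 at 18 h, within the limits. Some values could not change, such as divergence without 0 h. Of 1794 recomputed values of single members, 0 changed the sign of a called value, 24 calls were lost and 26 were gained. Only the main calls, 2 in divergence and 1 in the late difference, could be lost or reversed, so most of the 1794 could be neither. The main counts were 2 members past the test in divergence, 1 in the late difference, 0 in the slope at 32°C, and by tau 6 rising and 11 falling at 32°C and 0 and 1 at 37°C.

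In divergence, 5 members passed with quantile normalization, with an offset of 16 and with a common line over time, 1 with relative ranks, 6 among genes above the median signal, 4 (3 higher, 1 lower) with a robust variance trend, and 0 over all transcript clusters and with a separate term for 32°C. With that term the median divergence turned from 0.012 to -0.013 (30 of 77 positive). The cause was not tested.

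In the late difference, 3 passed with quantile normalization, the offset and the robust trend, 4 among genes above the median signal, and 0 with ranks and over all clusters. Wherever 3 or 4 passed, 1 of them was Mrps6, lower at 32°C, and the others were higher. In the slope at 32°C, 1 (Mrps6, lower) passed with the robust trend.

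Leaving out each time point in turn, 0 to 2 members passed in divergence. The 2 passed without 0 h, which cannot change this fit, and at most 1 passed without any other time point. In the late difference 0 passed. By tau, 2 to 4 rose and 6 to 11 fell at 32°C. At 37°C, 0 to 5 rose and 0 to 10 fell, the extremes without 0 h and without 18 h. By tau after quantile normalization or ranks, 13 rose and 6 fell at 32°C and 2 fell at 37°C. The median divergence ran from 0.0061 without 2 h to 0.021 without 18 h.

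The titles give no replicate numbers, so there was no replicate block to try; the arrays of both temperatures at the same time were paired in the fits, with the time point as the block. No depth is given for arrays, and signal over background was not used here.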
